A study of Caenorhabditis elegans with 2 samples.

Results

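The genes described here are the 276 transfer RNA (tRNA) genes of the Caenorhabditis elegans X chromosome, that is, every gene with the biotype tRNA on that chromosome in the Ensembl WBcel235 annotation, whether or not it was bound. The nuclear chromosomes hold 612 such genes, so chromosome X carries 45.1% of them on 17.7% of the nuclear genome, and the other 336 lie on the autosomes. Binding was measured by chromatin immunoprecipitation and sequencing (ChIP-seq) with an anti-GFP antibody in whole worms, and the deposited results are lists of binding sites (peaks), each with a summit and the authors' own signal. Both samples belong to 1 group, and the labels call them biological replicates 1 and 2. They are young adults of 62.5 hours from the strain RW12302, synchronised by starving L1 larvae obtained by bleaching. The allele st12302[D2030.7::TY1::EGFP::3xFLAG] I is a CRISPR insertion, which places the tags in D2030.7 on chromosome I. RefSeq lists the product of D2030.7 as C2H2-type domain-containing; zinc fingers of this type occur in many proteins that bind DNA. Both replicates come from this 1 strain and from whole animals, so binding in different tissues cannot be told apart. The authors derived the peak lists with a control, per the deposited descriptions. Beyond those lists, no untagged or other control sample was used here, and no second condition was measured.

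A tRNA carries an amino acid to the ribosome and reads the codon with its anticodon. RNA polymerase III transcribes tRNA genes from a promoter that lies inside the gene: the factor TFIIIC recognises the A box near the 5′ end and the B box nearer the 3′ end, TFIIIB is then placed just upstream of the start, and transcription stops in a run of T residues behind the gene. A worm has many copies of most tRNA genes, often with the same sequence, and the X chromosome is rich in them.

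Below, comparisons use a proline family with a pooled summit at every chromosome X copy and the most strongly bound proline genes. They also use proline genes without a pooled summit, and the strongest arginine, leucine and alanine genes. The gene sequences that carry these comparisons follow here. They are from RefSeq on WBcel235, written 5′ to 3′ on the strand of the gene, and capitals mark every match to the B box letters GTTCNANNC, where N is any base.
C48C5.t3 (tRNA-Pro, chrX:8969488-8969559, minus strand): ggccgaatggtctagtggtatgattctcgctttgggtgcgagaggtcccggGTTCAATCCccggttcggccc
C16B8.t2 (tRNA-Pro, chrX:3970096-3970167, plus strand): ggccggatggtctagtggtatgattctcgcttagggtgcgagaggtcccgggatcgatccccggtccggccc
C16B8.t3 (tRNA-Pro, chrX:3970265-3970336, plus strand): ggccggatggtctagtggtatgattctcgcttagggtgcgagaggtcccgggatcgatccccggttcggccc
C18A11.t1 (tRNA-Pro, chrX:8037507-8037578, plus strand): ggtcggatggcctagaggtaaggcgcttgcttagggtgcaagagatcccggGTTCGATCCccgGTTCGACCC
Y59E1B.t2 (tRNA-Pro, chrX:1880817-1880888, minus strand): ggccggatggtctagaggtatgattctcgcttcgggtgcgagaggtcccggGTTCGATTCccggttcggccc
F09B9.t2 (tRNA-Arg, chrX:10148649-10148721, minus strand): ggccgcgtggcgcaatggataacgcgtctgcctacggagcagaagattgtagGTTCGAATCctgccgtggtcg
F42F12.t1 (tRNA-Leu, chrX:12348007-12348126, minus strand): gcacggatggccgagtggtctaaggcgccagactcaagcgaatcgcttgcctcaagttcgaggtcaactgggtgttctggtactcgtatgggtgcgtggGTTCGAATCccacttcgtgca
F02D10.t3 (tRNA-Leu, chrX:13443386-13443504, minus strand): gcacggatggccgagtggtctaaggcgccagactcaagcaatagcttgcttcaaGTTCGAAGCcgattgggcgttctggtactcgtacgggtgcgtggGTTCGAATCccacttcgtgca
C04A11.t1 (tRNA-Leu, chrX:13665555-13665673, plus strand): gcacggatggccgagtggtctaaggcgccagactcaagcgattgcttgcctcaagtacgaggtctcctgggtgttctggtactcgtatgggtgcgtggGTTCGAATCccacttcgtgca
F15G9.t1 (tRNA-Ala, chrX:9743589-9743660, plus strand): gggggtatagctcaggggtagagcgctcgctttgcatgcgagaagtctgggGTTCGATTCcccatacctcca
F15G9.t2 (tRNA-Ala, chrX:9743747-9743818, plus strand): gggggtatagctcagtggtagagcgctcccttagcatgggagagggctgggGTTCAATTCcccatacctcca

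The first question was how many of these genes had D2030.7 bound. In the conservative list, which the authors made from both replicates and thresholded by the irreproducible discovery rate (IDR), 212 of the 276 chromosome X genes had a summit inside the gene or within 200 bp of its ends. A gene with such a summit is called bound below. The share was 76.8%, with an exact (Clopper-Pearson) 95% interval of 71.4% to 81.7%. The share among autosomal tRNA genes was 71.1% (239 of 336, interval 66.0% to 75.9%), and among all 46890 annotated nuclear genes it was 6.48%. The intervals treat genes as independent, which genes that share a summit or a sequence are not, and read depth is unknown because the lists hold no counts. The intervals of the chromosome X and autosomal tRNA genes overlapped, and the difference was not tested, since both come from the same samples of 1 group.

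The replicates were then read on their own. Replicate 1 had a summit at 196 of the 276 genes (71.0%) and replicate 2 at 191 (69.2%), a mean of 70.1% ± 1.28 (SD, n = 2). On the autosomes the corresponding counts were 211 of 336 genes (62.8%) in replicate 1 and 173 (51.5%) in replicate 2, a mean of 57.1% ± 8.0 (SD, n = 2). Across all annotated genes the shares were 5.60% in replicate 1 and 4.75% in replicate 2. The chromosome X share was thus above the autosomal one in each replicate's thresholded list, and the replicates lay closer together on chromosome X. The ranked lists also hold the candidates below the threshold, and the pooled ones did not keep this order. They are long, with 41183 peaks in the ranked list of replicate 1 and 34645 in that of replicate 2. The share of all annotated genes with a ranked candidate was not computed. The ranked shares were 86.6% on chromosome X and 86.0% on the autosomes in replicate 1, and 89.9% and 86.9% in replicate 2. In the ranked form of the conservative list they were 85.1% on chromosome X and 87.5% on the autosomes, and in the other pooled ranked list 85.9% and 89.3%. The other pooled list of the authors had summits at 213 chromosome X genes (77.2%) and 252 autosomal genes (75%), against 6.92% of all genes. Among the single autosomes the share in the conservative list ran between 63.6% (42 of 66 genes on chromosome I) and 76.6% (49 of 64 genes on chromosome III), so chromosome X lay at the upper end of the range but next to chromosome III, IV (76.1%) and II (75.4%).

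**Figure D1:**
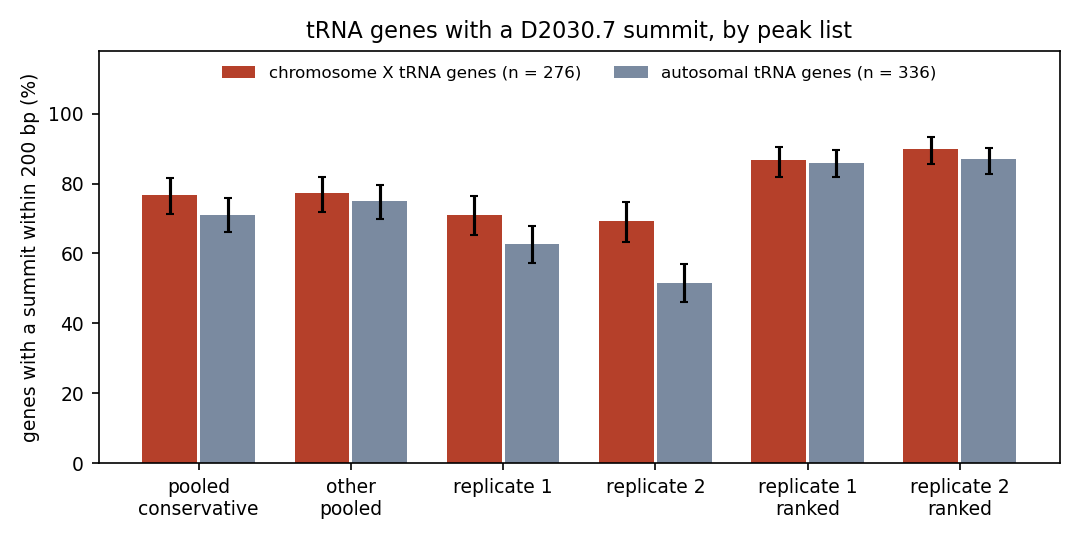
Share of tRNA genes with a summit within 200 bp (vertical axis, percent) in 6 of the peak lists, for chromosome X (red, left, n = 276) and the autosomes (grey, right, n = 336), with exact 95% intervals over genes. The chromosome X bars stand at 76.8%, 77.2%, 71.0% and 69.2% in the thresholded lists, and the widest gap to the autosomes is in replicate 2, at 69.2% against 51.5%.

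Read the other way round, most D2030.7 summits of chromosome X lay at tRNA genes. Of the 265 summits on this chromosome in the conservative list, 193 (72.8%, interval 67.0% to 78.1%) were within 200 bp of a tRNA gene and 72 were elsewhere. On the autosomes 228 of 2512 summits (9.08%, interval 7.98% to 10.3%) were at a tRNA gene. Each replicate gave the same order: 184 of 235 chromosome X summits (78.3%) against 204 of 2229 autosomal summits (9.15%) in replicate 1, and 173 of 217 (79.7%) against 163 of 1594 (10.2%) in replicate 2. Densities per megabase (Mb) stand behind these shares. Summits at tRNA genes numbered 10.9 per Mb on chromosome X and 2.76 per Mb on the autosomes, beside 15.6 and 4.07 tRNA genes per Mb. Summits away from tRNA genes numbered 4.06 per Mb on chromosome X and 27.7 per Mb on the autosomes. Chromosome X thus had more tRNA summits and fewer other summits for its length. Of its 50 strongest summits, 45 were at tRNA genes, as were 8 of its 10 strongest.

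**Figure D2:**
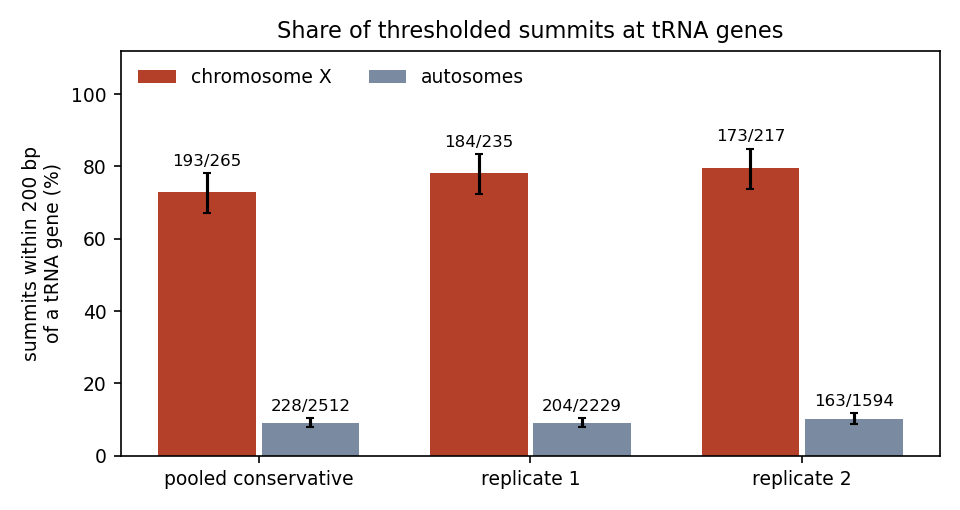
Share of thresholded summits that lie within 200 bp of a tRNA gene (vertical axis, percent) for chromosome X (red, left) and the autosomes (grey, right) in the conservative list and in each replicate, with exact 95% intervals over summits and the counts above the bars. Chromosome X stands at 72.8%, 78.3% and 79.7%, and the autosomes at 9.08%, 9.15% and 10.2%.

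Agreement between the replicates was examined gene by gene. A thresholded summit was present in both replicates at 163 of the 276 genes, in replicate 1 alone at 33, in replicate 2 alone at 28 and in neither at 52. On the autosomes the corresponding counts were 150, 61, 23 and 102 of 336. A gene missing from a thresholded list was often still a candidate in the ranked list from which the threshold was taken: 31 of the 33 genes in replicate 1 alone were candidates in replicate 2, and 19 of the 28 in replicate 2 alone were candidates in replicate 1. Counting all ranked candidates, 229 chromosome X genes had one in both replicates, 29 in 1 replicate and 18 in neither. The shares of all annotated genes with a thresholded summit or a candidate in both replicates were not computed. Over those 229 genes the replicates' signals had a Spearman rho of 0.74, a description across genes that share summits and libraries. At the 163 genes thresholded in both, the strongest summits of the replicates lay a median of 22 bp apart.

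**Figure D3:**
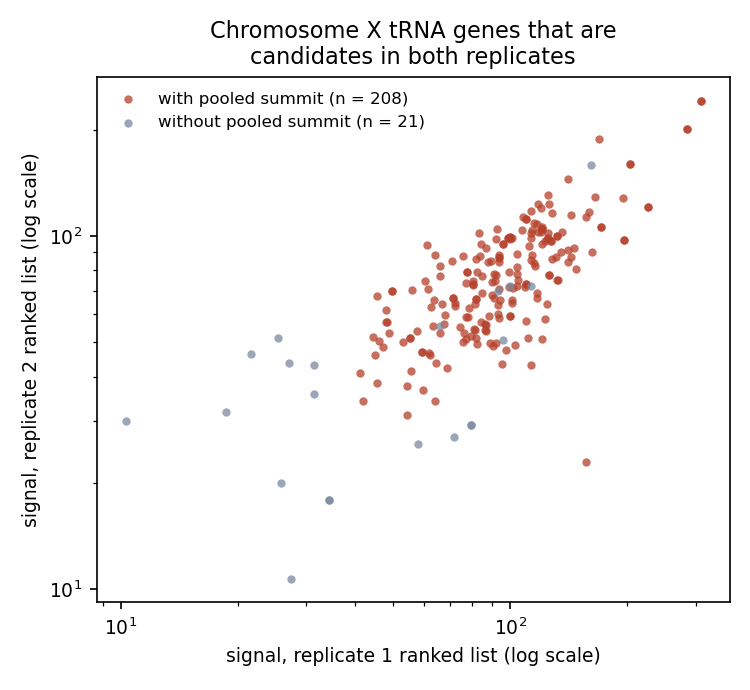
Signal in the ranked list of replicate 2 (vertical axis, log scale) against that of replicate 1 (horizontal axis, log scale) for the 229 chromosome X tRNA genes that are candidates in both replicates. The 208 genes with a summit in the conservative list (red) fill the upper right, and the 21 without one (grey) lie mostly below, apart from 6 that were thresholded in both replicates.

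Some genes stood out by differing between the replicates. F28H6.t7, a histidine tRNA gene, had a signal of 157 in replicate 1, from a summit it shares with F28H6.t2, and only a ranked candidate of 22.9 in replicate 2. F28H6.t2 itself had a thresholded summit of 113 in replicate 2. F28H6.t7 lies 190 bp from the pooled summit, so its difference sits at the limit of 200 bp. C18A11.t1, the proline gene printed above, had 121 in replicate 2 and no candidate in replicate 1 or in the pooled lists. F12D9.t4, an arginine gene, had 117 in the thresholded list of replicate 1 and a candidate of 68.8 in replicate 2. R04E5.t6, a glycine gene, had 113 in replicate 1 and a candidate of 43.2 in replicate 2. These are the 4 highest signals at genes thresholded in 1 replicate only.

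How strong the binding was is given by the signal of the strongest summit at each gene, which is comparable only within a list. In the conservative list the 212 bound chromosome X genes had a median signal of 166 (quartiles 135 and 220, range 61.4 to 563), the 239 bound autosomal tRNA genes 145 (quartiles 114 and 179, range 60.6 to 514), and all 2777 peaks 130. The medians in replicate 1 were 98.7 on chromosome X, 85.1 on the autosomes and 83.1 over all its peaks. In replicate 2 they were 80.8, 71.1 and 72.8 in that order. The chromosome X median was the higher of the tRNA medians in each list, and the quartile ranges overlapped. Of the 212 genes, 167 exceeded the median of all peaks, against 151 of 239 on the autosomes. The strongest of them stood at rank 65 of the 2777 peaks, and 13 of the 20 strongest tRNA summits were on chromosome X. In all, 193 tRNA summits of this list were on chromosome X and 228 on the autosomes.

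The strongest sites were mostly pairs of genes that share 1 summit. The proline genes C16B8.t2 and C16B8.t3 led, at a pooled signal of 563, with 309 in replicate 1 and 242 in replicate 2. They are separated by 97 bp, and their common summit, at position 3970164, is the base 69 of the stretch printed here, in which capitals mark the genes.
chrX:3970096-3970336, plus strand: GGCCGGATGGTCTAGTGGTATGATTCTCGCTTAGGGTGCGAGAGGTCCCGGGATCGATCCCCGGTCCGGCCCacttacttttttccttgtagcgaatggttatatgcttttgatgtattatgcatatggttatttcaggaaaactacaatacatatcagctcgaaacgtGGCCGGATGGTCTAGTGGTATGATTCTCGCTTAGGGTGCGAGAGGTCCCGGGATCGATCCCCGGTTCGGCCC
The alanine genes F15G9.t1 and F15G9.t2 came next, in an intron of him-4 on the same strand, with 486 in the pooled list, 285 in replicate 1 and 201 in replicate 2. Their summit is the base 96 of the printed stretch, in the 86 bp between the genes, which are again in capitals.
chrX:9743589-9743818, plus strand: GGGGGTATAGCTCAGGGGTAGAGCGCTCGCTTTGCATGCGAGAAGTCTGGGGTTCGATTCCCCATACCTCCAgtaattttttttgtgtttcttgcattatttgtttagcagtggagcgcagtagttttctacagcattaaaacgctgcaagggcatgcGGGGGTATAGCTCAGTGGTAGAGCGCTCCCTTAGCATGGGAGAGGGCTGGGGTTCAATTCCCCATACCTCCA
Both stretches hold the genes head to tail, and in each the list gives 1 summit for both genes.

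The glycine gene M02F4.t1 and the glutamate gene M02F4.t2, which point away from each other, shared a summit of 366 in the pooled list, 203 in replicate 1 and 160 in replicate 2. The valine genes C16H3.t1 and C16H3.t2, which face each other, shared one of 361, with 226 in replicate 1 and 121 in replicate 2. Next came a pair of leucine genes that stand alone. F42F12.t1 had a pooled signal of 349, with 169 in replicate 1 and 189 in replicate 2. F02D10.t3 had 325 in the pooled list, 195 in replicate 1 and 128 in replicate 2. These 10 genes had thresholded summits in both replicates.

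Over all chromosome X summits at tRNA genes, 168 served 1 gene and 25 served 2 genes, and none served 3 or more. The median signal was 207 for summits at 2 genes (quartiles 140 and 272) and 162 for summits at 1 gene (quartiles 132 and 202), a ratio of medians of 1.28. The corresponding autosomal medians were 151 for 23 shared summits and 137 for 205 single ones. A shared summit does not tell which of its genes is bound, so the count of 212 is a count of genes with a summit near them. When genes within 400 bp of each other were merged, 182 of 222 loci (82%) had a summit.

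At the low end were genes whose summit passed only in pooled lists. K11E4.t6, a lysine gene, had a pooled signal of 61.4, and C06G1.t4, an aspartate gene, had 69.6. F56F10.t1, a tyrosine gene, had 71.9, and C48C5.t4, a leucine gene, had 74.4. None of these 4 genes had a thresholded summit in either replicate. C06G1.t4 and F56F10.t1 also passed in the other pooled list, and K11E4.t6 and C48C5.t4 did not. The ranked candidates of K11E4.t6 had 54.3 in replicate 1 and 31.1 in replicate 2, while C06G1.t4 had a candidate of 41.6 in replicate 1 and none in replicate 2.

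The summits mostly lay inside the genes. Over all 212 genes the strongest summit was at a median of 25 bp downstream of the 5′ end (quartiles 7 and 43), and it was inside the gene at 159 of them (75%, interval 68.6% to 80.7%). Neighbouring genes blur this measure, so it was repeated for the 131 bound genes with no other tRNA gene within 500 bp. There the median was 27 bp (quartiles 17 and 42), and the summit was inside the gene at 120 (91.6%, interval 85.5% to 95.7%), upstream at 9 and downstream at 2. It was inside or within 20 bp of the gene at 129 of the 131. Autosomal genes without such neighbours had a median of 25 bp, with 155 of 190 summits (81.6%, interval 75.3% to 86.8%) inside the gene. The replicates gave medians of 30.0 bp and 28.0 bp for the chromosome X genes without neighbours, with 89.0% and 85.1% of summits inside. The B box letters started at a median of 52.0 bp from the 5′ end in the 130 of these genes that hold them, and the summit was upstream of that start at 109. The A box letters TNGCNNAG started at a median of 7 bp in the 68 that hold them. The median gene length was 72 bp, so the median summit lay somewhat nearer the 5′ end than the 3′ end. The replicates' summits lay a median of 22 bp apart at the 163 genes thresholded in both. Chromosome X peaks at tRNA genes had a median width of 336 bp in the conservative list. The placement relative to the boxes is therefore not resolved.

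**Figure D4:**
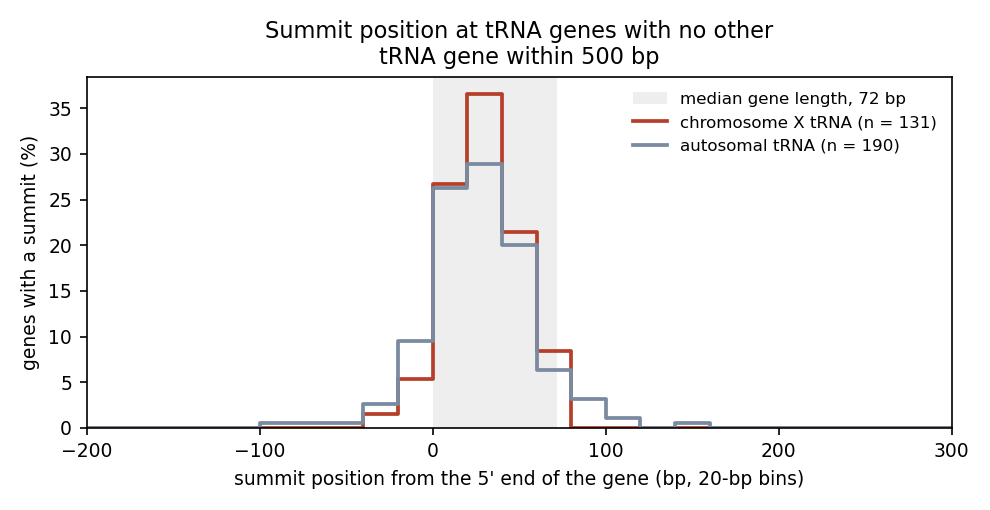
Position of the strongest summit of the conservative list from the 5′ end of the gene (horizontal axis, bp, bins of 20 bp; 0 is the first base) as a share of genes with a summit (vertical axis, percent), for tRNA genes with no other tRNA gene within 500 bp on chromosome X (red, n = 131) and on the autosomes (grey, n = 190). The shaded band is the median gene length of 72 bp, and the tallest bin, 20 to 39 bp, holds 36.6% of the chromosome X genes and 28.9% of the autosomal ones.

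The limit of 200 bp divided few genes. Just inside it were Y7A5A.t3, a proline gene 191 bp from a summit with a signal of 119, and F28H6.t7, 190 bp from a summit with a signal of 278. Just outside were F22F1.t9, an aspartate gene 214 bp from a summit with a signal of 227, and C25F6.t2, a methionine gene 220 bp from a summit with a signal of 175. Each of these genes had another tRNA gene within 500 bp. With a limit of 500 bp, 232 genes had a summit.

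Genes for all 20 amino acids were bound. At 17 of the 20 isotypes (the genes for 1 amino acid) at least 2 in 3 genes had a summit, against 13 in replicate 1 alone and 14 in replicate 2 alone. Of the 44 anticodons found in the genes, 41 had at least 1 bound gene. All 7 cysteine genes had a summit, as did 13 of 14 valine, 18 of 20 proline, 15 of 17 leucine, 7 of 8 tyrosine and 17 of 20 glycine genes. In replicates 1 and 2 these counts were 5 and 5 for cysteine, 14 and 12 for valine, 16 and 17 for proline, 14 and 13 for leucine, 5 and 4 for tyrosine, and 13 and 14 for glycine. Both replicates had a summit at 4 of the 7 cysteine genes. The full cysteine count also rests on shared summits, which lay 184 bp from K01A12.t5 and 175 bp from F12D9.t6. K01A12.t2 counted through a summit 132 bp away, inside the arginine gene K01A12.t3. The low end of the pooled list was held by methionine, with 4 of 8 genes, arginine, with 14 of 27, and glutamine, with 9 of 15. Arginine is also the isotype with the most genes on the chromosome. In the replicates 15 and 14 arginine genes, 7 and 6 glutamine genes, and 3 and 4 methionine genes had a summit. The low counts include genes that lie close together. The glutamine genes H08J11.t1, H08J11.t2, H08J11.t4 and H08J11.t5, all without a summit, are neighbours inside ajm-1. The methionine genes C25F6.t1 and C25F6.t2, also without a summit, lie within 500 bp of each other. The 3 genes without an annotated product, C28G1.t5, F47E1.t3 and K02D3.t1, had no thresholded summit in any list.

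The isotypes also differed in signal among the bound genes. Median signals ran between 120 for the 9 bound glutamine genes (range 90.8 to 166) and 263 for the 6 bound histidine genes (range 187 to 278), so these ranges did not overlap. The histidine genes F28H6.t2 and F28H6.t7 share the summit of 278. On the autosomes the ranges of glutamine (60.6 to 160) and histidine (125 to 271) did overlap. Valine (median 233), asparagine (223) and serine (221) were also high, and tryptophan (126) and tyrosine (129) were low. The highest signal of each isotype was 486 for alanine (F15G9.t1), 301 for arginine (F09B9.t2), 240 for asparagine (F52H2.t2), 243 for aspartate (C06G1.t2) and 207 for cysteine, from a summit inside K01A12.t4 that also lies 184 bp from K01A12.t5. It was 166 for glutamine (R04A9.t1), 366 for glutamate and glycine (the M02F4 pair), 278 for histidine (F28H6.t2) and 231 for isoleucine (C02D4.t1). For leucine it was 349 (F42F12.t1), for lysine 247 (E03E2.t3), for methionine 175 (C25F6.t3) and for phenylalanine 169 (K08B5.t1). For proline it was 563 (C16B8.t2), for serine 303 (F02D10.t2, from a summit it shares with rte-5), for threonine 239 (F55G7.t1), for tryptophan 153 (sup-7), for tyrosine 206 (R11.t1) and for valine 361 (C16H3.t1). The strongest tryptophan gene was below the median of 166 over all bound genes, and the strongest glutamine and phenylalanine genes were close to it.

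**Figure D5:**
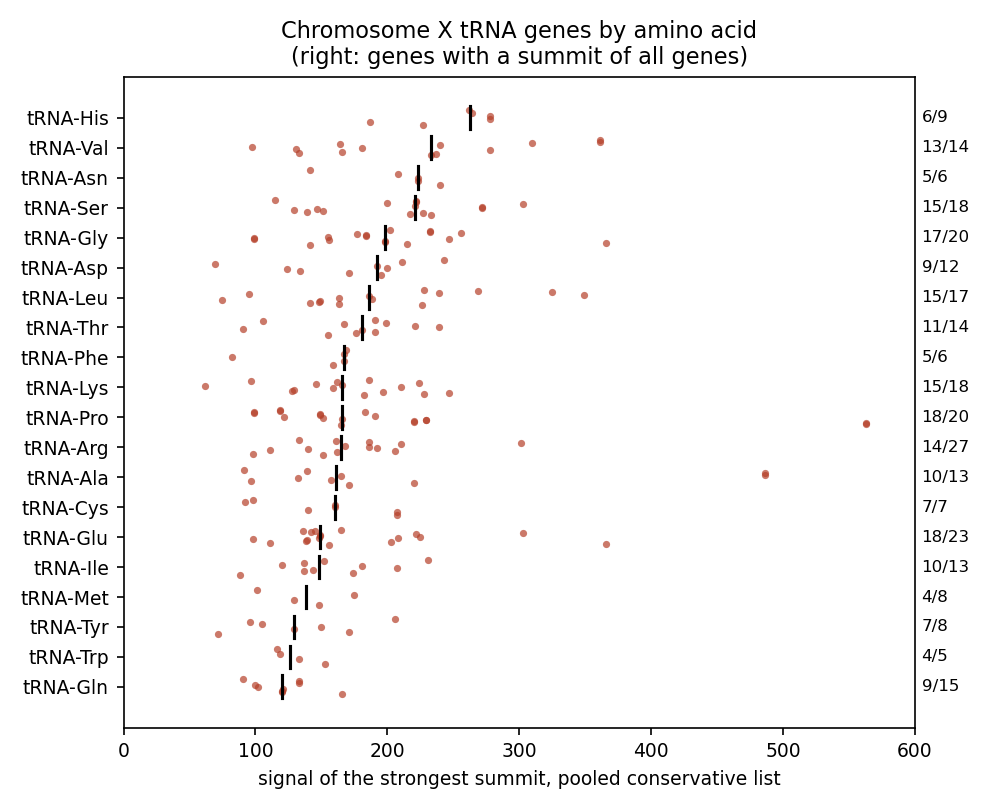
Signal of the strongest summit in the conservative list (horizontal axis) for each bound chromosome X tRNA gene (points), by amino acid and ordered by the median (black bars), with bound genes of all genes at the right. Medians run between 120 for glutamine and 263 for histidine, and the proline and alanine pairs stand apart at 563 and 486.

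Within an isotype the counts were also taken by anticodon. Among leucine genes the 3 with the anticodon CAA, printed above, were all bound, with 349, 325 and 269 in the pooled list. C04A11.t1 had 125 in replicate 1 and 131 in replicate 2. All 3 carry an intron that is spliced out of the transcript. Across chromosome X 12 tRNA genes are annotated with an intron, and 11 of them had a summit. Among proline genes all 15 with the anticodon TGG had a summit (14 in replicate 1 and 13 in replicate 2), as did 2 of 3 with AGG. The only chromosome X gene with CGG, Y59E1B.t2, had no candidate in any list. Its sequence occurs 4 times among the nuclear tRNA genes. All 3 autosomal proline genes with CGG had a summit, with signals of 97.5 to 133 (3 in replicate 1 and 1 in replicate 2). Among chromosome X arginine genes 9 of 13 with ACG and 3 of 4 with TCT had a summit, against 2 of 6 with TCG and 0 of 2 with CCT. Each replicate on its own had 3 bound genes with TCG and 1 with CCT. ZK380.t1, the only arginine gene with CCG, had no summit and a pooled candidate of 12.9. The other anticodons with a single gene on the chromosome were each bound: C40H5.t1 (leucine, TAA) had a signal of 186, W02H3.t1 (leucine, TAG) 188 and K02A4.t2 (alanine, CGC) 91.3. For K02A4.t2 the conservative list is the only thresholded list with a summit.

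Because tRNA genes come in identical copies, binding could be compared among genes whose sequence is the same. The 276 genes have 106 distinct sequences, of which 33 occur more than once on the chromosome. For 12 of those 33 every copy had a summit, for 21 some copies did and others did not, and for 0 was no copy bound. The proline sequence printed first occurs 13 times on chromosome X and was bound at all 13 copies, with signals of 119 to 229 in the pooled list, at 13 in replicate 1 and at 11 in replicate 2. Several of these copies share a summit with an identical neighbour, so a copy may count as bound only through that neighbour. The printed C48C5.t3 lies 150 bp from a summit that is 29 bp from C48C5.t1. Likewise, Y7A5A.t3 lies 191 bp from a summit inside Y7A5A.t2. Phenylalanine (5 of 5), lysine with TTT (5 of 5) and serine with AGA (5 of 5) sequences were also bound at each copy in the pooled list. The lysine and serine copies kept 5 and 5 in the replicates, while the phenylalanine copies had 4 in replicate 1 and 3 in replicate 2. In contrast the arginine sequence printed for F09B9.t2 was bound at 8 of its 10 copies, with signals of 97.8 to 301, and at 7 in replicate 1 and 6 in replicate 2. Its unbound copies were T06H11.t3, whose ranked candidate had 21.5 in replicate 1, and C03A3.t1, which had a thresholded summit of 81.4 in replicate 2 and no candidate in replicate 1 or in the pooled lists. The sequence inside the gene is the same in all 10. Reads from such copies can be hard to place, and the part this plays was not tested. A glutamine sequence was bound at 6 of 9 copies in the pooled list, with 5 in replicate 1 and 3 in replicate 2. A leucine sequence was bound at 8 of 9 copies (7 and 6 in replicates 1 and 2), a threonine sequence at 5 of 7 (4 and 5), and the alanine sequence of F15G9.t2 at 4 of 7 (5 and 5).

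Genes whose sequence is shared by no other nuclear tRNA gene had a lower share of summits. Of the 57 such genes on chromosome X, 32 had a summit (56.1%, interval 42.4% to 69.3%), against 180 of the 219 genes with at least 1 identical copy among the nuclear tRNA genes (82.2%, interval 76.5% to 87.0%). By number of copies the shares were 75.4% for 2 to 9 copies (49 of 65) and 85.1% for 10 or more copies (131 of 154). The replicates gave 50.9% and 54.4% for single sequences, against 76.3% and 73.1% for repeated ones. The autosomes showed 48.8% (42 of 86) for single and 78.8% (197 of 250) for repeated sequences. When bound, the single-sequence genes had a median signal of 154, against 167 for the repeated ones. Reads from repeated sequence can be hard to place, so the share of 31-base words that occur once in the genome was computed in the 200 bp on each side of the gene, without the gene itself. The median was 100% for both classes, with a lower quartile of 90.9% for single-sequence genes and 98.8% for repeated ones. This measure leaves out the gene itself, where most summits lay. With the gene included, the medians were 90.4% for single-sequence genes and 87.1% for repeated ones. The part that read placement plays was not tested.

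The internal promoter letters were common to nearly all genes. The B box letters GTTCNANNC on the gene strand were present in 209 of the 212 bound genes (98.6%, interval 95.9% to 99.7%) and in 59 of the 64 without a summit (92.2%, interval 82.7% to 97.4%). All nuclear tRNA genes had them in 95.9% of cases, and windows of 72 bp along chromosome X, searched on both strands, in 2.64%. The A box letters TNGCNNAG were present in 42.5% of bound genes (90 of 212), 35.9% of genes without a summit (23 of 64) and 6.35% of the windows. The pattern for the A box is narrow, so a gene without these letters may hold a variant. A run of 4 T residues within 25 bp behind the gene was found at 212 of 212 bound genes and at 61 of 64 others.

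Of the 8 genes without the B box letters, 3 had a summit, and these include the strongest of all. C16B8.t2 and C16B8.t3, printed above, hold no capitals for this reason, and no other nuclear tRNA gene has either sequence. The other is F38E9.t1, a methionine gene with a signal of 101. The 5 without a summit were F22F1.t6 and E01H11.t1, which have the sequence of F38E9.t1, the single-sequence genes ZK154.t1 (asparagine) and K11E4.t2 (lysine), and C28G1.t5, which has no annotated product. These genes were named after their values were seen.

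The shares were close for tRNA genes inside and outside protein-coding genes. On chromosome X 96 tRNA genes (34.8%) lie inside a protein-coding gene, and 75 of them had a summit (78.1%, interval 68.5% to 85.9%), against 137 of the 180 outside (76.1%, interval 69.2% to 82.1%). Genes in an intron on the same strand were bound at 39 of 50 and those on the opposite strand at 35 of 45. The 1 gene that overlaps an exon, C28G1.t1 (glutamate), had a signal of 225. Autosomal tRNA genes lie inside protein-coding genes more often, at 58.6%, and those had a summit at 141 of 197 (71.6%), against 98 of 139 (70.5%) outside. In the 48 chromosome X genes that fall in a promoter window of a protein-coding gene (1000 bp upstream to 200 bp downstream of its 5′ end) 39 had a summit, and 173 of the 228 others (75.9%).

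The share was lowest for the most crowded genes. Genes with no other tRNA gene within 500 bp had a summit in 131 of 168 cases (78.0%), those with 1 such neighbour in 66 of 80 (82.5%), and those with 2 or more in 15 of 28 (53.6%, interval 33.9% to 72.5%). The replicates gave 42.9% and 28.6% for the most crowded class. No autosomal tRNA gene had 2 or more such neighbours. Within this class are the histidine genes F28H6.t3, F28H6.t4 and F28H6.t6, which had no candidate in any list. Only 5.20% to 5.66% of the 31-base words in and around these 3 genes occur once in the genome, the lowest on the chromosome, and the part this plays was not tested. Along the chromosome, in steps of 3 Mb, the share in the conservative list ran between 58.3% (14 of 24) in the first step and 85.2% (23 of 27) in the next. The lowest step was another one in each replicate, at 60.9% (6 to 9 Mb) in replicate 1 and 65.3% (beyond 15 Mb) in replicate 2, while the step of 3 to 6 Mb was the highest in both, at 88.9% and 74.1%.

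The 64 genes without a summit in the conservative list were of several kinds. The other pooled list had a thresholded summit at 7 of them, with signals of 76.4 to 194. The highest was at C05C9.t1, a leucine gene with 194 there, 91.3 in replicate 2 and no candidate in replicate 1. F52H2.t1, an aspartate gene, had 136 there and 56.1 in replicate 2. A ranked candidate was present in at least 1 replicate at 46 of them, and 16 had no candidate in any of the 4 ranked lists. How many of all annotated genes have a ranked candidate was not computed. In the ranked form of the conservative list 23 of the 64 genes had a candidate, with signals of 12.9 to 103 and a median of 49.1. The highest were at the glutamine genes H08J11.t5 and H08J11.t1, which share a candidate of 103 in an intron of ajm-1, the arginine gene C36C9.t2 with 98.0 and the lysine gene C40C9.t2 with 89.7. C36C9.t2 had a thresholded summit of 71.8 in replicate 1, and C40C9.t2 one of 58.0 in replicate 1. All 4 of these genes passed the threshold in the other pooled list. The tryptophan genes sup-7, sup-21, sup-28 and sup-33, named for suppressor mutations that let them read a stop codon, have the same sequence. The pooled signal was 153 at sup-7, 133 at sup-28 and 119 at sup-33. No candidate was present at sup-21 in any list. The genes sup-21, sup-28 and sup-33 were named after their values were seen.

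Finally, 6 of the genes without a summit in either pooled list had a thresholded summit in both replicates. F38G1.t1, a threonine gene, had 161 in replicate 1 (rank 354 of 2464 peaks) and 159 in replicate 2 (rank 159 of 1811), with summits 16 bp apart. The others were F34H10.t1 (alanine) with 100 and 72.1, T01B4.t1 (valine) with 113 and 72.0, F28H6.t1 (arginine) with 92.9 and 69.7, F22H10.t1 (serine) with 95.9 and 50.7, and K02A4.t1 (serine) with 66.2 and 55.7 in replicates 1 and 2. No peak of either pooled ranked list overlapped any of these 6 genes, and the nearest summit of the conservative list was 298 bp away from K02A4.t1, inside the neighbouring gene K02A4.t2, and 1019 bp to 32067 bp away from the others. Among the 150 autosomal tRNA genes thresholded in both replicates, 1 was absent from the conservative list in this way, against 6 of 163 here. These 6 genes were named after their values were seen, and why the pooled lists lack them was not tested.

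Genes of tRNA transcription and processing were looked at for promoter summits beside the tRNA genes. Of 17 such genes, all of which matched the annotation, 4 had a summit of the conservative list in the promoter window, against 9.79% of the 19973 protein-coding genes. They were mafr-1, the worm homolog of the polymerase III repressor Maf1, with a signal of 102, rpac-19, a subunit shared by polymerases I and III, with 94.1, alkb-8, a tRNA-modifying methyltransferase, with 72.4, and elpc-3, a subunit of the Elongator complex that modifies tRNA, with 64.3. In replicate 1 rpac-19 (58.2) and mafr-1 (89.0) had a summit, and in replicate 2 none of the 17 did. No summit was present in the promoter windows of the other 13, which include rpc-1, brf-1 and the TFIIIC subunit genes tftc-1, tftc-3 and tftc-5.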

How the data were processed

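Anti-GFP ChIP-seq of D2030.7 was measured in 2 biological replicates of 1 group. Per the deposited descriptions, the authors derived 8 peak lists (a ranked and a thresholded list for each replicate and for 2 pooled sets) from alignments to ce11 (WBcel235) and a control. Which aligner and which peak caller they used is not given in the sources used here. Each peak's signal is the authors' value as deposited, compared only within a list. The lists also carry a deposited score in the place of a q-value, which was not used. The ranked lists carry −log10 of the IDR as deposited by the authors. A minimum of 2 was used to find the ranked form of the conservative list and as 1 alternative for the count. No file used here gives counts, so depth is unknown.

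Genes came from Ensembl release 115, with products and sequence from RefSeq on WBcel235; all 276 coordinates were identical in both, and 273 genes had a product. A gene took the strongest summit within 200 bp. Anticodons were found by a rule (a stem of 5 pairs with at least 4 formed, a loop of 7 bases, T before the anticodon, decoding to the product) in 268 genes. Counts, medians and exact 95% intervals were computed with Python 3.11.15, pandas 2.3.3 and scipy 1.17.1; no test was made, since genes are not replicates of a condition. The assignment of summits was tested on simulated data. Intervals cover sampling of genes or summits only. The members and lists were chosen with earlier results of these data known.

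Genes are named by rule: the 10 highest and 4 lowest signals, the 4 highest candidates without a summit, the 2 on each side of the distance limit, the 4 highest in 1 replicate only, the strongest of each isotype, and anticodons with 1 gene. Any other gene named was chosen after its values were seen.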

Additional observations from a re-analysis of the deposited data

How the results depend on the processing

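The count of 212 bound genes stayed within 1.5 times under 12 of 13 alternatives: 161 with the summit inside the gene, 198 within 100 bp and 232 within 500 bp, 203 by overlap of the peak, 167 with peaks above the list's median signal, and 191 to 196 with 1 replicate left out. Among the 12, the ranked list at a −log10 IDR of at least 2 gave 212 again. That list was matched to the conservative list by the same cutoff, so it is no independent check. Counting each distinct sequence once gave 77 of 106, a smaller number because fewer units are counted. The count in both replicates was 163, against 229 with all ranked candidates and 147 to 186 with limits of 100 and 500 bp. The median signal of 166 ran between 165 and 168. Leaving out a replicate gave a median position of 25 to 28 bp, a share of 68.8 to 74.0% for genes inside protein-coding genes (78.1% pooled), 50.9 to 54.4% for single-sequence genes, and 0 to 2 of the 17 tRNA transcription and processing genes against 4 pooled. Isotypes with at least 2 in 3 genes bound numbered 13 to 14, against 17 pooled. Chromosome X summits at tRNA genes made up 78.3 to 79.7% with a replicate left out, and 69.5% in the other pooled list. Without members that lack the B box letters, a product or an anticodon, 60.4% of the 48 single-sequence genes were bound. The letters GGTTCNA were present in 88.7% of bound genes. Alternatives for single-sequence genes, isotypes, summit shares, unique words and the 17 genes were chosen after seeing the data. So was the median signal of 167 without genes that have 2 or more other tRNA genes within 500 bp. The causes of these shifts were not tested. No paired analysis was possible because there is 1 group. Depth is unknown, so no lower limit can be given for the 16 genes with no candidate in any ranked list.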
